A study of Mus musculus with 27 samples.

Results

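The thin filament genes that differ between slow, fast and developing muscle fibres were followed through muscle injury and repair: troponin I (Tnni1, Tnni2), troponin C (Tnnc1, Tnnc2), troponin T (Tnnt1, Tnnt2, Tnnt3) and sarcomeric actin (Acta1, Actc1). These 9 genes were chosen by name from the 55852 entries of the table of injured muscle, all 9 were among its 15718 tested genes, and all 9 were also in the table of control muscle with its 55677 entries. Cardiotoxin (CTX), a peptide of snake venom that destroys muscle fibres and is followed by regeneration, had been injected into the muscle of male mice. Tissue of WT and Gsdme KO mice was taken on D1, D4, D7 and D14 (n = 3 libraries per genotype and day, 24 in all). Gsdme encodes gasdermin E, which forms pores in the cell membrane once cleaved, and per the study it was deleted in the whole animal. The other 3 libraries were WT control muscle without injury, and no KO control muscle was analysed here. The titles of the mutant samples say KO whereas their genotype entry says Gsdme knockdown, and KO below means the libraries so titled. The study names the gastrocnemius and, as control, the uninjured muscle of the other leg, whereas the deposited description names injected thigh muscle and unloaded controls.

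Troponin is the calcium switch of the thin filament. Troponin C binds calcium, troponin I inhibits the contact of actin and myosin until calcium arrives, and troponin T ties the complex to tropomyosin. Slow fibres use Tnni1, Tnnc1 and Tnnt1, and fast fibres use Tnni2, Tnnc2 and Tnnt3. Tnnt2 and Actc1, the cardiac troponin T and cardiac actin genes, are also used by embryonic and regenerating skeletal muscle before Tnnt3 and Acta1 replace them, and Tnni1 is made in most embryonic fibres whatever their later type.

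The deposited values were TPM, a relative transcript abundance that is corrected for gene length and sums to 1 fixed total per library, so that levels of different genes can be compared while the depth of the libraries is unknown. From 11785 to 14704 genes reached 1 TPM per library. Gsdme was lower in every KO than in every WT library of the same day on D1 (1.28 to 2.17 against 2.76 to 4.85 TPM), D4 (1.0 to 1.64 against 2.63 to 3.02 TPM) and D7 (0.95 to 1.37 against 1.8 to 2.51 TPM), whereas the genotypes overlapped on D14 (1.27 to 1.96 against 1.46 to 2.26 TPM). KO D4 replicate 2 stood apart from its group, with r of 0.913 and 0.925 across genes to the other KO D4 libraries, a sum of 463 TPM over 8 leukocyte genes where the others had 3860 and 3226, and a sum of 276 TPM over 11 myogenic factor genes where the others had 758 and 795. The changes of the 9 genes in KO from D1 to D4, their genotype differences on D4 and the shares averaged over days are given with and without it. The libraries were bulk tissue, in which fewer fibres of a type and less RNA per fibre cannot be told apart.

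Short windows of the promoters of 4 of these genes show the elements through which sarcomeric actin and troponin genes are commonly described as being controlled in muscle. Promoter sequence from 250 bases before to 50 bases after the start site was taken from RefSeq (GRCm38.p6, the assembly of mm10), which matched 7 of the 9 genes, all but Tnni2 and Tnnt3. Each window below is read 5′ to 3′ along the strand of its gene, with the motif in capitals. The CArG box binds serum response factor, and M-CAT (CATTCC) binds TEAD factors.
Acta1 CArG box, chr8:123894829-123894858, minus strand: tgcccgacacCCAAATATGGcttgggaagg
Actc1 CArG box, chr2:114052903-114052932, minus strand: gctaaggcgaCCAAATAAGGcaaggtggca
Acta1 M-CAT, chr8:123894806-123894831, minus strand: agggcagcaaCATTCCttcggggcgg
Tnnt2 M-CAT, chr1:135836297-135836322, plus strand: tcctgctgcaCATTCCtccctccgcg
Tnnc1 M-CAT, read on the other strand, chr14:31208244-31208269, plus strand: ggctgggctgGGAATGtagcaggagg
The CArG box begins 73 bases before the start site in Acta1 and 47 bases before it in Actc1, and 1.63% of 32851 mouse promoters of this length hold one on either strand. Both actin promoters thus hold an element that was not found in the troponin windows. M-CAT begins 46 bases before the start site in Acta1, 27 in Tnnt2 and 58 in Tnnc1, and 14.7% of the promoters hold it. Another promoter entry of Tnnt2, chr1:135836739-135837038, holds no M-CAT. The other motifs searched were the MEF2 site (3.19% of promoters), which none of the 7 genes held, the E-box CANNTG (72.3%), which each of the 7 held, and TATAAA (13.6%), held by Acta1, Actc1 and Tnnt1. TATAAA begins 7 bases before the start site in Acta1 and 30 before it in Tnnt1, but at position 33 after it in Actc1. No motifs in the printed windows overlapped. A match is a description of the sequence and was not tested as a binding site.

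The main pattern, clearest in WT, was a transient shift toward slow and embryonic isoforms on D4, which for Actc1 lasted to D7. In KO the D1 and D4 levels of Tnnc1, Tnnt1 and Tnnt2 overlapped. Isoform shares were computed in each library as the percentage of a family's summed TPM. The fast or adult gene nevertheless remained the main isoform in each of the 24 injured libraries, with 77.2% to 100% for Tnni2, 90.8% to 100% for Tnnc2, 80.1% to 100% for Tnnt3 and 83.7% to 98.4% for Acta1. A share does not depend on the scaling of the library, and for each family the 2 genotypes were tested together with exact two-sided permutation of neighbouring days within genotype (400 assignments, smallest p 0.005). In all, 25 tests of shares were made and their p-values are given without adjustment.

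**Figure D1:**
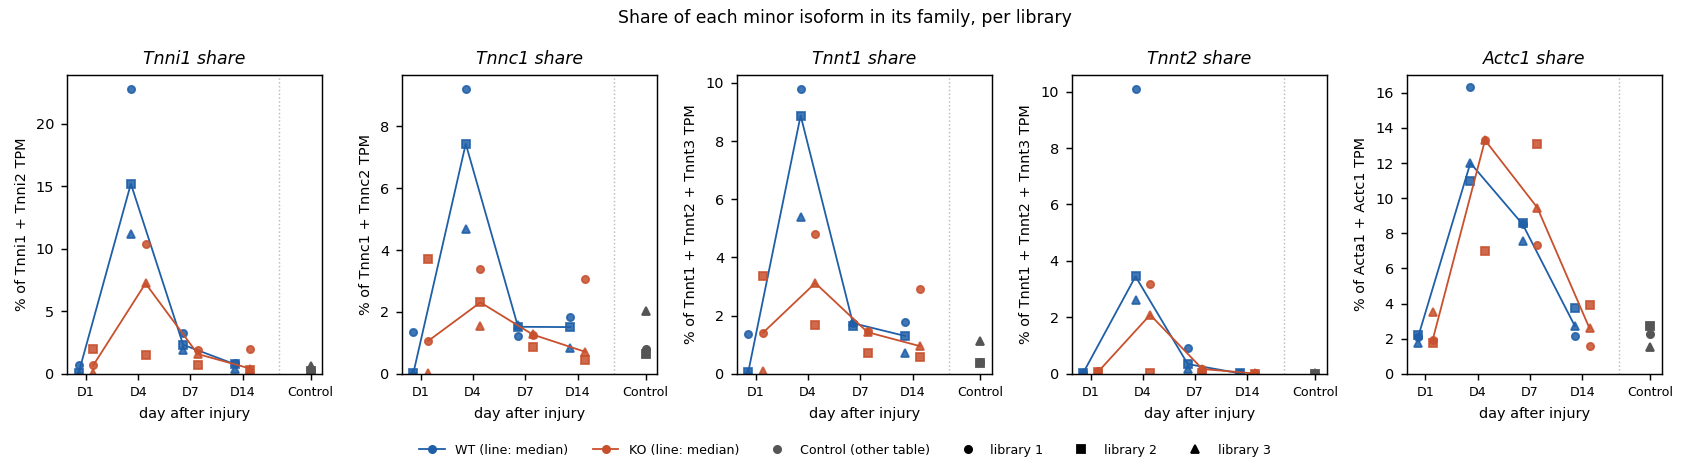
Share of each slow or embryonic isoform in its family, in percent of the family's summed TPM (y axis), by day after injury and in control muscle (x axis). Points are libraries, lines join the median of 3 libraries per genotype, and control values right of the dotted line come from the other table. On D4, Tnni1 reached 22.8%, Tnnt2 10.1% and Actc1 16.3% in WT replicate 1, and the WT and KO ranges of the Tnni1, Tnnc1 and Tnnt1 shares did not overlap. Ranges were also apart for Tnnt1 and Tnnt2 on D7 and for Tnnt2 on D1. Averaged over days, no genotype difference in a share passed exact permutation with all libraries.

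The largest change in share, in percentage points, was in troponin I. Tnni1 (ENSMUSG00000026418, chr1:135783033-135810989), the slow isoform, made up 0.729%, 0.0588% and 0.0118% of troponin I in WT D1 replicates 1, 2 and 3, and 22.8%, 15.2% and 11.2% on D4. The WT shares then were 3.29%, 2.32% and 1.87% on D7 and 0.894%, 0.745% and 0.395% on D14. In KO, the corresponding shares were 0.672%, 2.0% and 0.0565% on D1, 10.4%, 1.49% and 7.23% on D4, 1.88%, 0.678% and 1.58% on D7, and 1.95%, 0.29% and 0.42% on D14. In WT the D4 libraries thus lay above all others, while KO D4 replicate 2 fell inside the range of KO D1. Over both genotypes, the share was 10.8 percentage points higher on D4 than on D1 (p = 0.01, exact permutation), lower on D7 than on D4, by -9.44 points (p = 0.015), and lower on D14 than on D7, by -1.16 points (p = 0.035). The last step rested on single libraries, since leaving out KO D7 replicate 1 or 3, WT D14 replicate 3 or KO D14 replicate 2 or 3 gave exact p from 0.055 to 0.075.

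In absolute level, Tnni1 was at 89.9, 5.78 and 2.68 TPM in WT D1 and at 1134, 1516 and 1202 TPM in WT D4. In KO it was at 53.3, 233.0 and 5.35 TPM on D1 and at 848, 275 and 909 TPM on D4. All 6 D4 libraries exceeded all 6 D1 libraries. By limma on log2(TPM + 1), with Benjamini-Hochberg adjustment over the 15718 genes, Tnni1 rose by 6.60 (SE 1.08) from D1 to D4 in WT (adjusted p = 0.000407) and by 3.79 (SE 1.08) in KO (adjusted p = 0.0209). The KO call was lost without KO D1 replicate 3 (2.41, adjusted p = 0.147), without KO D4 replicate 3 (3.49, adjusted p = 0.0638) and in a fit of the compared groups alone (adjusted p = 0.137). Thereafter Tnni1 was at 242 to 414 TPM in WT D7 and 68.8 to 157 TPM in WT D14, against 52.9 to 148 TPM in control muscle. Neither later step passed the test in limma (WT D7 minus D4 -2.01, adjusted p = 0.194, and D14 minus D7 -1.48, adjusted p = 0.276).

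Tnni2 (ENSMUSG00000031097, chr7:142441816-142444410), the fast troponin I, was the larger part of the family throughout, between 3850 and 22730 TPM. It was at 12244, 9823 and 22730 TPM in WT D1 and at 3850, 8436 and 9560 TPM in WT D4, and the 2 groups did not overlap. It fell by 1.05 (SE 0.35) in WT (adjusted p = 0.0433), while in KO D4 minus D1 was 0.29 (adjusted p = 0.575). By D14 it was tightly grouped, at 17355 to 17677 TPM in WT and 16876 to 17866 TPM in KO.

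Troponin C followed with a smaller share. Tnnc1 (ENSMUSG00000091898, chr14:31208312-31211729), the slow and cardiac troponin C, was at 218, 5.58 and 3.67 TPM in WT D1 and 693, 1080 and 596 TPM in WT D4. In KO it was at 112, 523 and 3.95 TPM on D1 and 387, 458 and 283 TPM on D4. WT D4 lay above WT D1 without overlap, whereas KO D1 replicate 2 exceeded all 3 KO D4 libraries. Tnnc1 rose by 5.34 (SE 1.29) in WT (limma, adjusted p = 0.00642), and the KO difference was 2.48 (SE 1.29, adjusted p = 0.172), which passed without KO D1 replicate 2 (3.97, adjusted p = 0.0362).

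As a share of troponin C, Tnnc1 averaged 0.463% ± 0.757 (SD, n = 3) in WT D1, 7.11% ± 2.28 in WT D4, 1.44% ± 0.196 in WT D7 and 1.4% ± 0.511 in WT D14. In KO these means were 1.6% ± 1.9, 2.41% ± 0.932, 1.14% ± 0.251 and 1.41% ± 1.45. Over both genotypes the share was 3.73 points higher on D4 than on D1 (p = 0.025, exact permutation) and lower on D7 than on D4, by -3.47 points (p = 0.005), and D14 differed from D7 by 0.111 points (p = 0.895). The first step had an exact p of 0.05 without KO D1 replicate 3. Tnnc2 (ENSMUSG00000017300, chr2:164777161-164779734), the fast troponin C, was at 16084, 14237 and 28222 TPM in WT D1 and 6827, 13444 and 12137 TPM in WT D4. It fell by 0.85 (SE 0.29, adjusted p = 0.0463) in WT and differed by 0.30 (adjusted p = 0.469) in KO.

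Troponin T held both a slow and an embryonic component. Tnnt1 (ENSMUSG00000064179, chr7:4504569-4515975), the slow isoform, was at 213, 9.7 and 4.85 TPM in WT D1 and 677, 1092 and 648 TPM in WT D4. In KO it was at 141, 483 and 11.5 TPM on D1 and 471, 345 and 521 TPM on D4. As with Tnnc1, only the WT days were separated. Tnnt1 rose by 5.04 (SE 1.09, adjusted p = 0.00298) in WT, and the KO difference was 2.21 (SE 1.09, adjusted p = 0.15), which passed without KO D1 replicate 2 (3.38, adjusted p = 0.0379). Its share of troponin T was 4.56 points higher on D4 than on D1 (p = 0.015, exact permutation), lower on D7 than on D4, by -4.15 points (p = 0.005), and D14 minus D7 was -0.0888 points (p = 0.86).

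Tnnt2 (ENSMUSG00000026414, chr1:135836315-135852268), the embryonic component, lies 25325 bases from Tnni1. In WT it was at 5.16, 5.56 and 4.42 TPM on D1, at 695, 424 and 313 TPM on D4, at 143, 55.4 and 27.4 TPM on D7 and at 3.41, 5.8 and 1.98 TPM on D14. In KO it was at 9.25, 8.51 and 8.41 TPM on D1, at 310, 7.37 and 349 TPM on D4, at 32.5, 12.2 and 29.4 TPM on D7 and at 3.92, 1.98 and 2.16 TPM on D14. Each WT day was separated from its neighbours without overlap. In KO this held except on D4, where replicate 2 lay below all KO D1 and all KO D7 libraries while the other 2 lay above them. From D1 to D4 Tnnt2 rose by 6.23 (SE 0.92, adjusted p = 0.000192) in WT and by 3.32 (SE 0.92, adjusted p = 0.0188) in KO by limma. Without KO D4 replicate 2 the KO rise was 5.09 (adjusted p = 4.19e-06), and without KO D4 replicate 3 it was 2.39 (adjusted p = 0.0905).

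The later decline of Tnnt2 passed the test in WT, by -2.88 (SE 0.92, adjusted p = 0.0472) from D4 to D7 and by -3.78 (SE 0.92, adjusted p = 0.0104) from D7 to D14. The first of these was lost without any 1 of 5 WT libraries, the adjusted p reaching 0.188 without WT D4 replicate 1 or WT D7 replicate 3. The second was lost without WT D7 replicate 1 (-3.16, adjusted p = 0.0651) or WT D14 replicate 3 (-3.49, adjusted p = 0.0643). In KO, D7 minus D4 was -2.03 (adjusted p = 0.479) and became -3.80 (adjusted p = 0.000379) without KO D4 replicate 2, and D14 minus D7 was -2.73 (adjusted p = 0.148). On the share of troponin T, which was 5.37% ± 4.09 (SD, n = 3) in WT D4 and 1.77% ± 1.6 in KO D4, all 3 steps passed exact permutation over both genotypes, with 3.52 points (p = 0.02), -3.27 points (p = 0.02) and -0.291 points (p = 0.005). The step from D4 to D7 had an exact p of 0.055 without WT D7 replicate 2 and 0.06 without WT D7 replicate 3.

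Tnnt3 (ENSMUSG00000061723, chr7:142498771-142516213), the fast isoform, lies 54360 bases from Tnni2. It was at 15235, 13101 and 30963 TPM in WT D1 and 5535, 10788 and 11042 TPM in WT D4, without overlap, and it fell by 1.08 (SE 0.34, adjusted p = 0.0303) in WT. In KO the difference was 0.21 (adjusted p = 0.689). The 3 fast troponin genes thus fell together from D1 to D4 in WT, yet none of the calls held without WT D4 replicate 1 (-0.54 for Tnnc2, -0.64 for Tnni2 and -0.75 for Tnnt3, adjusted p from 0.156 to 0.23) or without WT D1 replicate 3 (-0.55, -0.70 and -0.70, adjusted p from 0.194 to 0.255). The calls of Tnnc2 (-0.95, adjusted p = 0.0594) and Tnni2 (-1.14, adjusted p = 0.065) were also lost by limma without WT D1 replicate 1. For Tnnc2 the call was lost in 4 of 6 fits that left out a library. WT D4 replicate 1 had the lowest level of all 3 genes, and WT D1 replicate 3 the highest level of all 3 on that day.

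**Figure D2:**
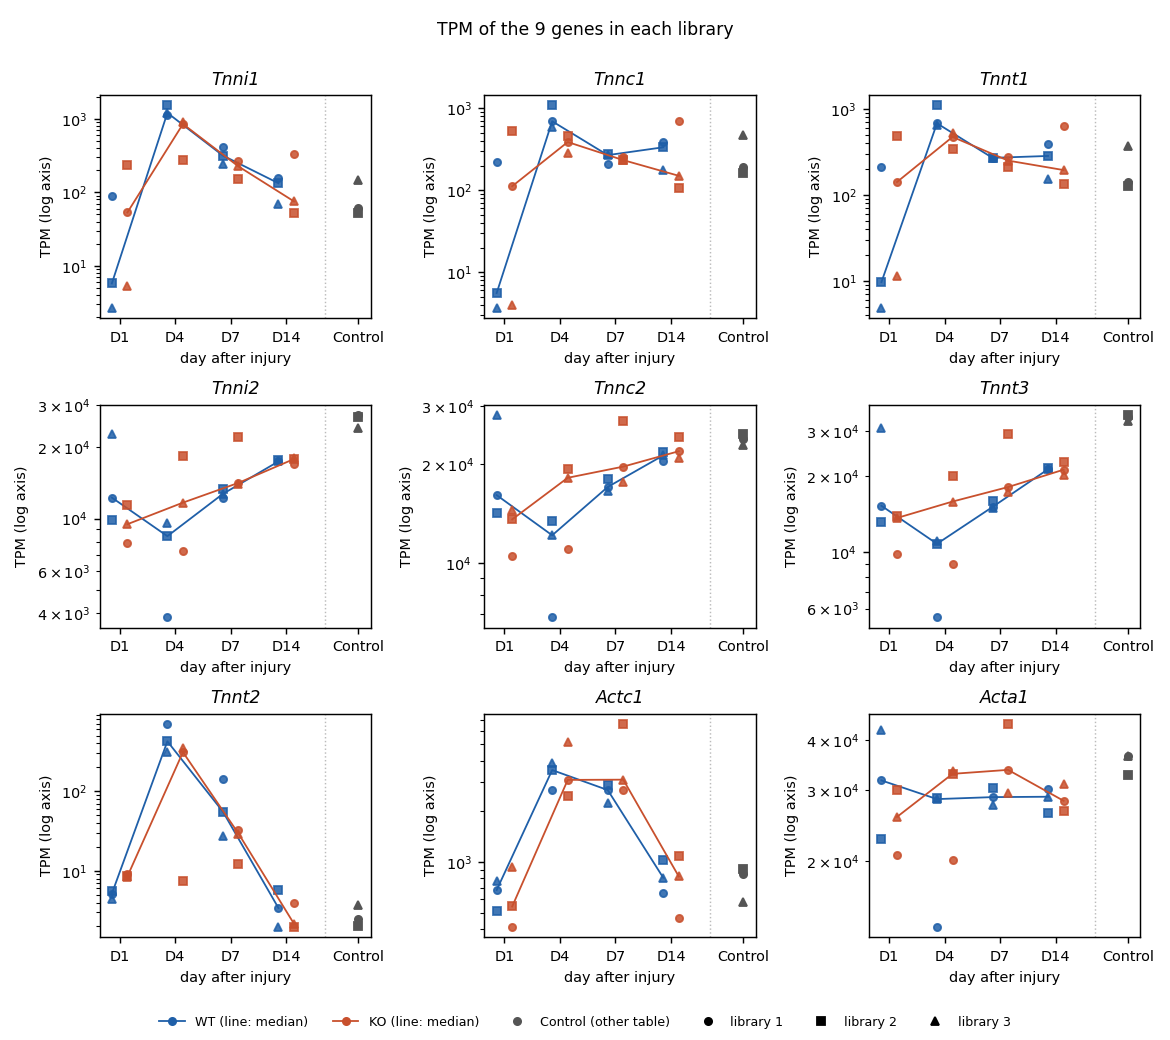
TPM of the 9 genes (log y axes) by day after injury and in control muscle (x axis). Points are libraries, marker shapes give the library number, lines join the median of 3 libraries per genotype, and control values right of the dotted line come from the other table. Tnnt2 spans 1.98 to 695 TPM with its highest libraries on D4, whereas Acta1 stays between 13697 and 43718 TPM.

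Of the sarcomeric actins, Actc1 changed with the days and Acta1 did not pass the test at any step. Actc1 (ENSMUSG00000068614, chr2:114047282-114052875), the cardiac and embryonic actin, was at 680, 510 and 768 TPM in WT D1, 2670, 3522 and 3882 TPM in WT D4, 2678, 2856 and 2252 TPM in WT D7 and 657, 1027 and 805 TPM in WT D14. In KO it was at 411, 543 and 936 TPM on D1, 3078, 2469 and 5150 TPM on D4, 2669, 6597 and 3087 TPM on D7 and 462, 1078 and 819 TPM on D14. All 12 libraries of D4 and D7 lay above all 12 of D1 and D14. The D4 and D7 ranges of Actc1 overlapped in both genotypes, and KO D4 replicate 2 lay far above the D1 libraries in this gene, unlike in Tnnt2.

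Actc1 rose from D1 to D4 by 2.36 (SE 0.37, adjusted p = 3e-04) in WT and by 2.51 (SE 0.37, adjusted p = 0.000288) in KO. From D4 to D7 the differences were -0.36 (adjusted p = 0.505) and 0.16 (adjusted p = 0.897). It fell from D7 to D14 by 1.66 (SE 0.37, adjusted p = 0.00788) in WT and by 2.35 (SE 0.37, adjusted p = 0.00723) in KO. In WT this step was -1.07 (adjusted p = 0.0849) with median-of-ratios scaling and -1.65 (adjusted p = 0.051) without WT D14 replicate 3. As a share of sarcomeric actin, Actc1 was 9.92 points higher on D4 than on D1 (p = 0.005, exact permutation), and lower on D14 than on D7, by -6.32 points (p = 0.005), while D7 minus D4 was -3.04 points (p = 0.085). Without KO D4 replicate 2 the middle step was -4.10 points (exact p = 0.01).

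Acta1 (ENSMUSG00000031972, chr8:123891758-123894775), the adult skeletal actin, had the narrowest range of the 9 genes and took from 1.37% to 4.37% of all TPM of an injured library. It was at 31687, 22706 and 42336 TPM in WT D1, 13697, 28614 and 28473 TPM in WT D4, 27493 to 30292 TPM in WT D7 and 26260 to 30164 TPM in WT D14. Its largest step was D4 minus D1 in WT, at -0.48 (SE 0.30, adjusted p = 0.28). Acta1, Actc1 and the other actin genes encode closely similar proteins, and any reads that match more than 1 of these genes may have been assigned to either. The extent of this was not tested.

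These counts can be read against all genes tested. From D1 to D4 in WT, 5 of the 9 genes rose where 14.6% of all genes did, and 3 fell where 5.27% did. In KO, 3 rose (7.18% of all genes) and none fell (12.2%). Between D4 and D7 in WT none rose (3.04%) and 1 fell (9.31%), a share close to that of all genes, and in KO none was called in either direction, as was the case for all genes tested (0 and 0%), with Tnnt2 at an unadjusted p of 0.0406 where 9.89% of all genes had one under 0.05. Between D7 and D14 in WT none rose (0.923%) and 2 fell, where 30.9% of all genes fell. The share of all genes called at this step in either direction depended on the scaling, being 31.8% as deposited, 13.8% with quantile normalization and 17.8% with scaling without abundant genes, each with 2 of the 9 called. With median-of-ratios scaling it was 13.7%, with 1 of the 9 called. Nothing particular to the 9 can be read from their count. In KO none rose (0.0827%) and 1 fell (0.477%). The median log2 difference of all genes from D7 to D14 was -0.45 in WT and -0.19 in KO, against -3.78 and -2.73 for Tnnt2 and -1.66 and -2.35 for Actc1.

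Groups of neighbouring days that did not overlap can be read in the same way. From D1 to D4 in WT, 5 of the 9 genes were higher in every library of the later day, as were 22.1% of all genes, and 3 were lower, as were 7.39%. In KO, 2 were higher (10.9% of all genes). From D4 to D7 in WT, 3 were higher (9.52%) and 4 lower (33.2%), and in KO 3 were lower (6.45%), namely Tnni1, Tnnc1 and Tnnt1. From D7 to D14 in WT, 3 were higher (4.58%) and 3 lower (58.9%), and in KO 2 were lower (25.7%).

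Without KO D4 replicate 2, the same 3 genes were called from D1 to D4 in KO, as were 14.7% of all genes. Tnni1 was at 4.35 (limma, adjusted p = 0.0201), Tnnt2 as given above and Actc1 at 2.74 (adjusted p = 0.00017). The other differences then were 2.32 for Tnnc1, 2.38 for Tnnt1, -0.04 for Tnni2, 0.15 for Tnnc2, -0.04 for Tnnt3 and 0.04 for Acta1, so that Tnni2 and Tnnt3 changed sign.

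Within the slow complex, the subunits did not keep a fixed ratio. The ratio of Tnni1 to Tnnc1 TPM was 1.64, 1.4 and 2.02 in WT D4 and 2.19, 0.601 and 3.21 in KO D4. It was 0.409, 0.397 and 0.383 in WT D14, 0.482, 0.482 and 0.503 in KO D14, and 0.325, 0.325 and 0.315 in control muscle. Tnni1 thus exceeded Tnnc1 in 5 of 6 libraries on D4, 2 of 6 on D1, 3 of 6 on D7 and 0 of 6 on D14. On D14 the genotypes did not overlap in this ratio, although the TPM of neither gene separated them. The fast Tnnt3 to Tnnc2 ratio was higher in KO on D7 (0.919 to 1.08 against 0.88 to 0.897) and lower in KO on D14 (0.938 to 0.968 against 0.985 to 1.04). No test was made of these ratios. Several ratios were compared on each day, and exact permutation of 3 against 3 libraries cannot go below p = 0.1. Single separations can therefore arise without a genotype difference. The ratio of Tnni1 to Tnnt1 likewise exceeded 1 in 5 of 6 libraries on D4 and in none on D1 or D14. In both ratios the exception on D4 was KO replicate 2.

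**Figure D3:**
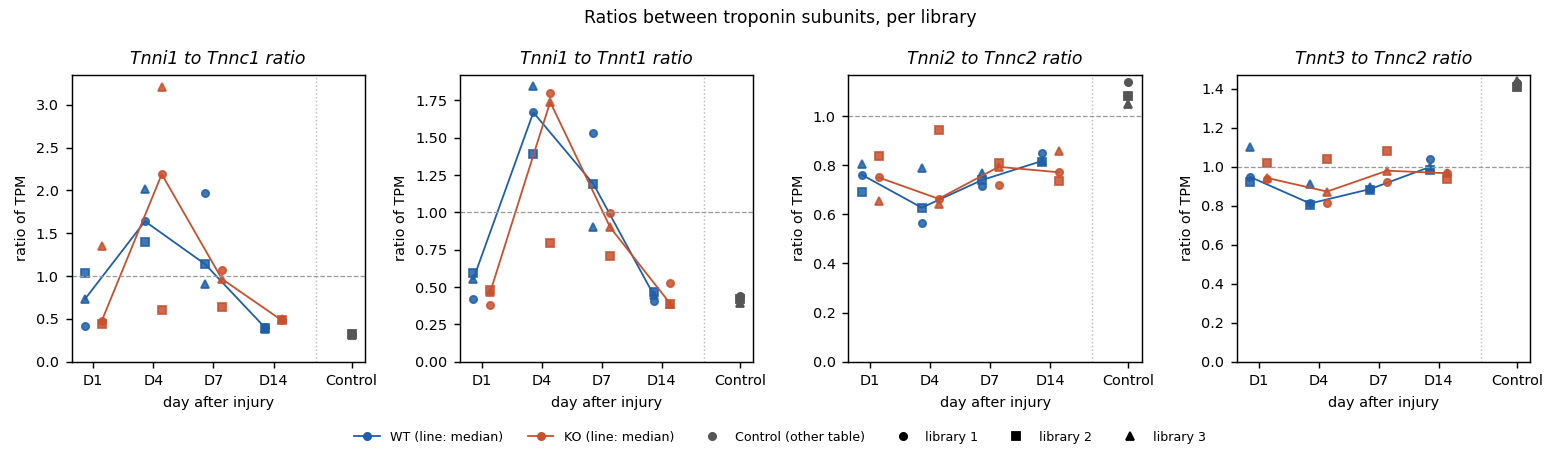
Ratio of TPM between troponin subunits in each library (y axes, dashed line at 1) by day after injury and in control muscle (x axis). Points are libraries and lines join the median of 3 libraries per genotype. Tnni1 exceeds Tnnc1 in 5 of 6 libraries on D4, and the control values of both fast ratios, from the other table, lie above all 24 injured libraries.

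The slow troponins did not follow slow myosin in every library. Myh7, the slow myosin heavy chain, was at 153, 1.3 and 0.33 TPM in WT D1 and at 72.4, 438 and 0.39 TPM in KO D1, and the same 3 libraries with little Myh7 were the ones with Tnni1, Tnnc1 and Tnnt1 at no more than 11.5 TPM. On D4, in contrast, Myh7 was at 3.12 TPM in WT replicate 1 and 0.57 TPM in KO replicate 3, while Tnni1 was at 1134 and 909 TPM, Tnnc1 at 693 and 283 TPM and Tnnt1 at 677 and 521 TPM in these libraries. Among the KO D4 libraries, replicate 2 had the most Myh7 (331 TPM), the lowest Tnni1 and Tnnt1 and the highest Tnnc1, and replicate 3, with the least Myh7, had the lowest Tnnc1. WT D4 replicate 2 had the most Myh7 on that day (423 TPM) and also the highest Tnni1, Tnnc1 and Tnnt1. Myh7 itself did not pass the test from D1 to D4 in WT (2.82, SE 2.08, adjusted p = 0.378) or KO (-0.21, adjusted p = 0.954). How much slow muscle each sample held, and its part in the slow troponin levels, was not tested.

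**Figure D4:**
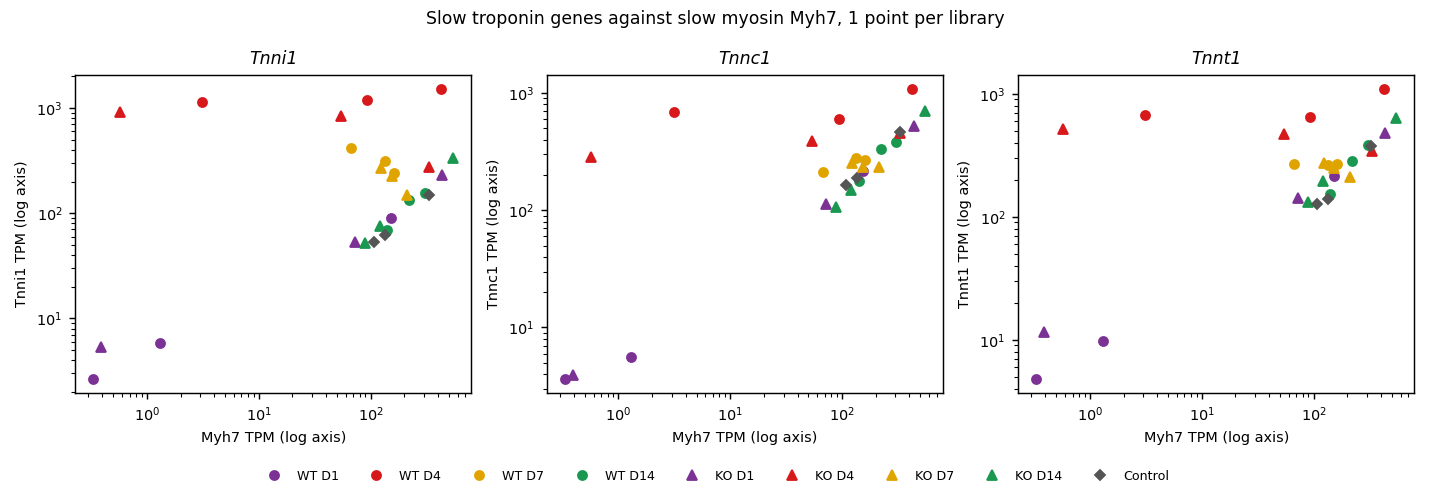
TPM of each slow troponin gene (y axes, log) against TPM of the slow myosin Myh7 (x axes, log), 1 point per library, coloured by day, with circles for WT, triangles for KO and diamonds for control muscle. The D1 libraries with Myh7 near 1 TPM have the lowest slow troponin, whereas the D4 libraries with Myh7 at 3.12 and 0.57 TPM have Tnni1 at 1134 and 909 TPM.

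An embryonic myosin and a myoblast fusion gene moved in the same libraries as Tnnt2. Myh3, the embryonic myosin heavy chain, was at 523, 471 and 397 TPM in WT D4 and at 259, 3.58 and 268 TPM in KO D4, and at no more than 1.05 TPM on D1. It rose from D1 to D4 by 8.50 in WT (adjusted p = 6.9e-05) and by 5.20 in KO (adjusted p = 0.00342) by limma. Mymk, the myoblast fusion protein myomaker, was at 353, 177 and 191 TPM in WT D4 and at 140, 6.05 and 169 TPM in KO D4. As with Tnnt2, KO D4 replicate 2 was the only D4 library low in both. Of 8 heart genes, Tnni3 was at no more than 3.0 TPM, Myh6 at no more than 5.02 TPM and Myl7 at 0 in all 24 libraries. Nppa, Mybpc3 and Ryr2 were at no more than 0.91 TPM. The list was not low throughout, since Nppb reached 18.3 TPM and Gja5 also exceeded the highest Myh6 level. The sum over the 8 heart genes was between 4.57 and 28.4 TPM.

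The libraries also differed in cells other than muscle. Over 8 leukocyte genes, the summed level was 5839, 3901 and 2762 TPM in WT D4 and 3860, 463 and 3226 TPM in KO D4. Over 6 smooth muscle genes it was 1273, 675 and 850 TPM in WT D4, 752, 645 and 552 TPM in KO D4, and 253 to 327 TPM on D1. Both sums were lower in KO D4 on average, as were the slow troponins and Tnnt2, and their part in those differences was not tested.

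Of 23 other thin filament genes tested, 5 rose and 3 fell from D1 to D4 in WT and 4 rose and 2 fell in KO. Actn2, the Z-disc actinin, rose by 1.72 (adjusted p = 0.0131) in WT, Tpm2, a tropomyosin, by 1.02 (adjusted p = 0.00983), and Tmod1, which caps the pointed end of the thin filament, by 0.74 (adjusted p = 0.0329). Among those that fell were Klhl40, a stabiliser of thin filament proteins (-0.95, adjusted p = 0.00347), and Xirp1, an actin-binding repair protein (-1.49, adjusted p = 0.00847). The median of the 23 was 0.09 in WT, beside 0.17 for all genes and 2.36 for the 9. Of 4 actins outside the sarcomere, Acta2 (2.15, adjusted p = 6.9e-05) and Actg2 (1.94, adjusted p = 0.00797), both of smooth muscle, rose in WT. Of 13 myosin chains, 4 rose and 1 fell in WT and 4 rose in KO, and of 11 myogenic factors 5 rose and 1 fell in WT and 2 rose and 1 fell in KO. Of 8 fast fibre genes outside the 9, 4 fell from D1 to D4 in WT and 3 rose from D4 to D7, and none was called in KO.

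To ask whether loss of Gsdme altered the isoform switch, KO was compared with WT on each day. On D1 none of the 9 genes was called (1 gene, 0.00636%, over all), with differences between -0.58 and 2.00 and a lowest adjusted p of 0.873. On D4 none was called either (0% of all genes), with differences between -2.22 and 0.77 and a lowest adjusted p of 0.212. The same held on D7 (0% of all genes, -1.37 to 0.55, lowest adjusted p 0.776) and D14 (0%, -0.34 to 0.07, adjusted p of 1). Averaged over days no gene of the 9 was called (0.00636% of all genes), and neither was any in the F test of whether the genotype difference varied between days (0%, lowest adjusted p 0.527). At an unadjusted p under 0.05 there were 2 of the 9 on D4, Tnnt2 and Tnni2, where 22.7% of all genes had such a p, a share close to that of the 9. There were 0 of the 9 on D1 (5.38% of all genes), D7 (3.06%) and D14 (2.06%) and in the average (3.54%).

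On single days the genotypes did not overlap in some genes. On D4 all 3 slow genes were lower in every KO than in every WT library, as were 11.2% of all genes. The median difference over all genes tested on that day was -0.28. The slow genes were at 275 to 909 against 1134 to 1516 TPM for Tnni1, 283 to 458 against 596 to 1080 TPM for Tnnc1 and 345 to 521 against 648 to 1092 TPM for Tnnt1. Their differences were -1.09 (SE 1.08), -1.05 (SE 1.29) and -0.83 (SE 1.09), each about as large as its error, and the adjusted p was from 0.483 to 0.599. Without KO D4 replicate 2 they were -0.54, -1.20 and -0.66, so that the Tnni1 difference was smaller by over 1.5 times. The fast genes differed in the other direction on D4, by 0.77 for Tnni2, 0.70 for Tnnt3 and 0.60 for Tnnc2, and by 0.45 each without that library, with none called either way. Actc1 and Acta1 differed by 0.03 and 0.33, and by 0.26 and 0.22 without it. The fit shares 1 estimate of spread over the 8 groups, among which the D1 groups of these genes spread most. On D7 Tnni2 was at 13965 to 21910 TPM in KO against 12152 to 13320 TPM in WT, and Tnnt3 at 17247 to 29324 against 14869 to 15852 TPM, both with an adjusted p of 0.776, and 1.85% of all genes were higher in every KO library on that day. On D1 Tnnt2 was higher in every KO library, as were 3.33% of all genes, at 8.41 to 9.25 against 4.42 to 5.56 TPM (0.69, SE 0.92, adjusted p = 0.897).

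Tnnt2 had the largest genotype difference on D4, -2.22 (SE 0.92, unadjusted p = 0.0262, adjusted p = 0.212), and it rested on 1 library. Without KO D4 replicate 2 it was -0.46 (adjusted p = 0.91), and the average over days went from -0.80 (adjusted p = 0.861) to -0.36 (adjusted p = 1.0).

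By permutation of genotype within days (160000 assignments), the shares in KO minus WT averaged over days were -2.57 points for Tnni1 (p = 0.0651, exact permutation), -0.963 for Tnnc1 (p = 0.189), -0.994 for Tnnt1 (p = 0.189), -0.981 for Tnnt2 (p = 0.0637) and 0.0144 for Actc1 (p = 0.988). None passed 0.05 with all libraries, and these p-values do not show that the genotypes were alike. The Tnni1 difference had an exact p of 0.028 without KO D1 replicate 2 and 0.0317 without KO D14 replicate 1, and that of Tnnt2 had p = 0.0137 without WT D4 replicate 3. Without KO D4 replicate 2 the averages were -1.96 points for Tnni1 (p = 0.159, exact permutation), -0.95 for Tnnc1, -0.805 for Tnnt1, -0.764 for Tnnt2 and 0.541 for Actc1, with exact p from 0.159 to 0.446. On D4 the share of Tnni1 was 16.4% ± 5.88 (SD, n = 3) in WT and 6.37% ± 4.52 in KO. The share of Tnnc1 was 7.11% ± 2.28 in WT and 2.41% ± 0.932 in KO, that of Tnnt1 8.03% ± 2.32 and 3.21% ± 1.57, that of Tnnt2 5.37% ± 4.09 and 1.77% ± 1.6 and that of Actc1 13.1% ± 2.84 and 11.2% ± 3.65. On D7 the share of Tnnt1 was lower in every KO library, at 0.718% to 1.48% against 1.64% to 1.77% in WT, which was not tested for that day alone.

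**Figure D5:**
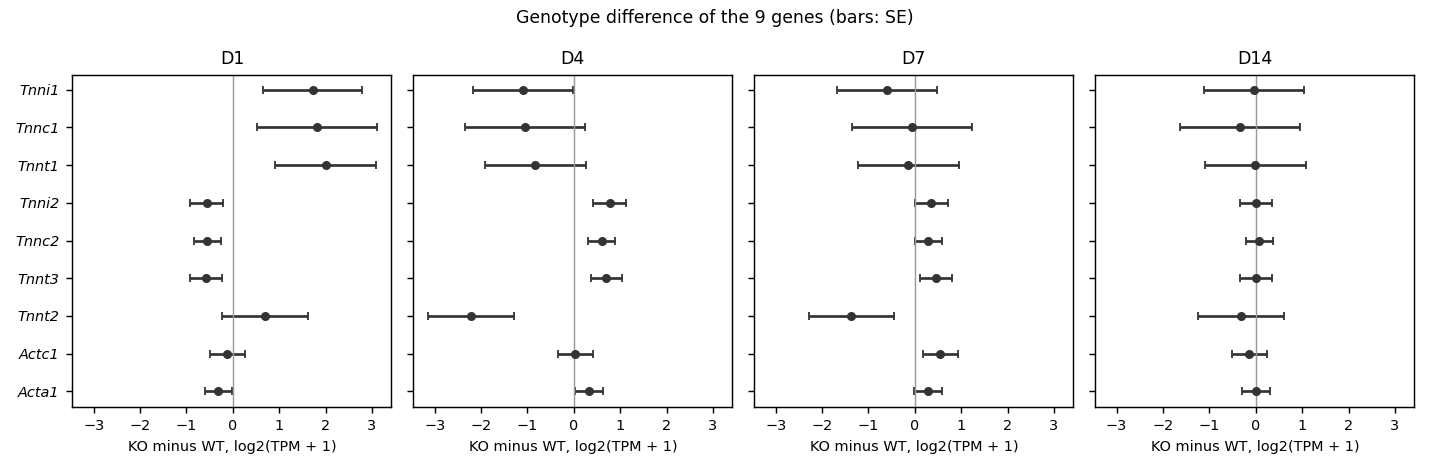
KO minus WT for the 9 genes on each day, as the difference of mean log2(TPM + 1) (x axis) with its standard error from limma (bars, n = 3 libraries per genotype). No difference passed the adjusted test. The widest is Tnnt2 on D4 at -2.22, and on D14 all lie between -0.34 and 0.07.

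The early effect of injury was read in the table that holds control muscle and WT D1. In control muscle Tnni1 was 0.226%, 0.198% and 0.614% of troponin I, Tnnt2 0.00728%, 0.00579% and 0.0111% of troponin T, and Actc1 2.27%, 2.71% and 1.55% of sarcomeric actin. Of the 9 genes, 1 was called higher in WT D1, where 55.4% of 13041 genes were, and 1 lower, where 5.64% were. The gene called lower was Tnnc1 (-3.70, SE 1.28, adjusted p = 0.0342), with 163 to 469 TPM in control muscle, and of the WT D1 libraries only replicate 1 reached that range. The other slow genes differed in the same direction without a call by limma. Tnnt1 was at -2.985 (SE 1.169, adjusted p = 0.053) and Tnni1 at -2.596 (SE 1.04, adjusted p = 0.0571). The gene called higher was Tnnt2 (0.75, SE 0.24, adjusted p = 0.0243), at 2.49, 2.02 and 3.68 TPM in control muscle and 5.34, 5.82 and 4.38 TPM in WT D1 in this table, but the median of all genes moved by 0.66 in the same comparison, and Tnnt2 was 0.13 (adjusted p = 0.593) with median-of-ratios scaling and -0.05 (adjusted p = 0.841) with quantile normalization. Both calls were lost without control replicate 1 or 2, where 45.2% and 43.9% of all genes were called. Without WT D1 replicate 3, 7 of the 9 were called, as were 68.8% of all genes.

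The fast genes were called in neither direction, at -0.89 for Tnni2 (adjusted p = 0.0743), -0.85 for Tnnt3 (adjusted p = 0.1) and -0.35 for Tnnc2 (adjusted p = 0.42). In level, Tnni2 and Tnnt3 were lower in every WT D1 than in every control library, as were 7.03% of all genes. Both were called without WT D1 replicate 3 (limma, -1.24, adjusted p = 0.00083, and -1.23, adjusted p = 0.000994), a fit that called 68.8% of all genes. Tnnt2 was higher without overlap, as were 64.2% of all genes. Both fast ratios also did not overlap, and they were not tested. The Tnni2 to Tnnc2 ratio was 1.14, 1.08 and 1.05 in control muscle and 0.762, 0.69 and 0.806 in WT D1, and the Tnnt3 to Tnnc2 ratio was 1.43, 1.41 and 1.44 against 0.958, 0.945 and 1.13. In the table of injured muscle, which was normalized separately, both ratios were below the lowest control value in 24 of 24 libraries, from 0.564 to 0.942 and from 0.802 to 1.1, including all libraries of D14. The study describes 2 sequencing batches, and the sources used here do not say to which WT D1 belongs, so that batch cannot be told apart from injury in the comparison with control muscle, from genotype on D1 or from day in the WT step from D1 to D4. Shares of WT D1 and control muscle differed with exact p from 0.1, the smallest that 3 against 3 allows, for Tnnt2 to 0.8 for Actc1.

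The order of levels over the 8 injured groups separated the genes into kinds. Tnni1, Tnnc1 and Tnnt1 were highest in WT D4, whose range did not overlap that of KO D4, the next group, and all later neighbours in the order overlapped. Tnnt2 ran from WT D4 over KO D4, WT D7 and KO D7 to the D1 and D14 groups, with a gap between KO D7 and KO D1 and a further gap between KO D1 and WT D1. For Actc1 the only gap lay between WT D7 and WT D14. Among the fast genes and Acta1 all neighbouring groups overlapped.

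Across the 24 injured libraries, which share days and tissue makeup so that the values are a description, the genes most like each member on log2(TPM + 1) were often other members. Tnnt1 was closest to Tnnc1 (Pearson r = 0.988) and to Tnni1 (0.948), and Tnnt3 to Tnnc2 (0.987) and Tnni2 (0.986). Tnnt2 was not closest to another member but to Grb10, Pnmal2 and Mymk (0.985 each). Actc1 was closest to Hacd1 (0.931), and Acta1 to Gm10359 (0.899).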

How the data were processed

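RNA had been extracted from whole muscle of WT and KO mice and sequenced from both fragment ends. The authors deposited TPM per gene in 2 tables, 1 with the 24 injured libraries and 1 with the control muscle beside WT D1. TPM is not a count and keeps no depth, so that neither counting intervals nor detection limits were computed. As TPM is a share of the library, 50 abundant genes with 25.4% to 61.4% of a library can shift the values of the rest. Per the labels the build was mm10, and the aligner and counting tool are not given in the sources used here. Both tables were normalized separately and tested separately. The WT D1 libraries stand in both, and their values differed between tables by no more than 0.272% for 7 of the 9 genes, by up to 4.68% for Tnnt2 and by up to 3.34% for Tnnt3.

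Sample titles gave the groups and the replicate numbers. The description calls the libraries biological triplicates without naming animals, and p-values measure the spread between these libraries. Values were analysed as log2(TPM + 1), a scale that understates the change of low genes. Genes that reached 1 TPM in 3 or more libraries were tested with limma 3.58.1 in R 4.3.3 (8 group means for injured muscle, empirical Bayes moderation with a trend), with Benjamini-Hochberg adjustment over all genes tested, and an adjusted p under 0.05 is a call. Shares were tested by exact two-sided permutation with NumPy 2.4.6. Alternatives were a pseudocount of 0.1, no filter, a filter of 5 TPM, median-of-ratios scaling, quantile normalization, scaling without the 50 most abundant genes, quality weights, a fit of the compared groups alone, a replicate block and leaving out each library. Shares were also tested as log2 ratios. The scripts were checked on simulated data.

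The genes and gene lists were chosen with earlier results of these data known, and no list was tested as a set. All 9 genes are described, with the other genes of the fixed lists given as counts. Those named are the defining members, called genes or, for the heart list, further members. The authors' columns of group means were not used. Promoter motifs were searched on both strands.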

Additional observations from a re-analysis of the deposited data

Results flagged for a closer look

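The share of Tnnt2 in troponin T was higher in every KO than in every WT library on D1, by 0.0412 percentage points, and lower in every KO than in every WT library on D7, by -0.354 percentage points. It was singled out because the 2 days moved in opposite directions without overlap. The difference between the days was not tested for the share. For the level of Tnnt2, the limma F test of a genotype difference that varies between days gave an adjusted p of 0.527. On D1 the gene was at no more than 9.25 TPM in any library.

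The ratio of Tnnt3 to Tnnc2 was higher in every KO than in every WT library on D7, by 0.106, and lower on D14, by -0.0492. This reversal was not tested either, and on D7 it includes KO replicate 2, which had the highest Tnnt3 and Tnnc2 of its group. The ratio compares 2 genes within a library, so that the scaling of the libraries does not enter it. Several ratios were looked at on each day, and groups this small can separate without a genotype difference.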

How the results depend on the processing

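The rise of Tnni1, Tnnc1, Tnnt1, Tnnt2 and Actc1 from D1 to D4 in WT and of Actc1 in KO kept its direction and call under all 9 alternative fits and without any 1 library. No gene of the 9 was called between genotypes on any day, in the average or in the F test under any alternative run or without any 1 library. The number of the 9 called is given below with the share of all genes called in the same fit in parentheses. From D1 to D4 in WT this number was 8 (19.8%). It became 5 with no filter (9.62%), quantile normalization (24.2%), quality weights (17.3%) or the compared groups alone (9.13%). With median-of-ratios scaling it was 6 (24.9%). Fast genes were lost in these settings. In KO from D1 to D4 the number went from 3 (19.4%) to 1 (2.16%) with the compared groups alone. From D4 to D7 in WT it was 1 (12.3%). It went to 0 with a pseudocount of 0.1 (9.92%), no filter (4.55%) or scaling without abundant genes (10.8%). With quality weights it was 8 (67.4%), and with the compared groups alone it was 4 (13.6%). From D7 to D14 in WT it went from 2 to 1 with median-of-ratios scaling, 4 with quality weights and 5 with the compared groups alone, and in KO from 1 to 2 with the last 2 settings. For WT D1 minus control it went from 2 (61.1%) to 0 (25.8%) with no filter and 6 (42.4%) with median-of-ratios scaling. It was 1 (40.6%) with quantile normalization and 4 (83.2%) with quality weights. Tnnt2 there turned to -0.05 with quantile normalization. The causes were not tested. As log2 ratios, the Tnnc1 share from D7 to D14 was -0.145 and the Tnnt1 share in KO minus WT 0.127, both of the opposite sign to the shares and neither past the test.

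Leaving out each library gave 5 to 8 calls from D1 to D4 in WT (13.2% to 22.7% of all genes) and 1 to 5 in KO (6.95% to 25.5%). From D4 to D7 it gave 0 to 1 in WT (1.36% to 10.2%) and in KO (0% to 8.79%). From D7 to D14 in WT it gave 0 to 2 (1.82% to 26.6%), and for WT D1 minus control 0 to 7 (43.9% to 68.8%). The share differences in KO minus WT ranged from -3.22 to -1.77 points for Tnni1, -1.33 to -0.394 for Tnnt2 and -0.378 to 0.541 for Actc1. Those from D1 to D4 ranged from 3.21 to 4.34 for Tnnc1, and those from D4 to D7 from -3.96 to -2.09 for Tnnt2 and -4.1 to -2.24 for Actc1. From D7 to D14 they ranged from -1.42 to -0.957 for Tnni1, -0.306 to 0.353 for Tnnc1 and -0.446 to 0.136 for Tnnt1, and for WT D1 minus control from -0.311 to 0.0544 for Tnni1, -0.587 to 0.0981 for Tnnt1 and -0.459 to 0.118 for Actc1.

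Libraries of the same replicate number did not deviate together (r across genes from -0.401 to 0.395), and the numbers were not taken as pairs. This does not show that the libraries were unpaired, since the numbers need not mark the mouse. Per the study the control muscle was of the other leg, so that control and WT D1 libraries may share mice. The labels do not link them, and the main fit took them as independent. With a replicate block, the KO minus WT shares had exact p of 0.0996, 0.221, 0.263, 0.0542 and 0.977 for Tnni1, Tnnc1, Tnnt1, Tnnt2 and Actc1. In WT D1 minus control the block gave calls for 3 of the 9, where 53.3% of all genes were called. Tnnt2 was not called there (limma, adjusted p = 0.0598). With 3 libraries per group, 1 library often decided a call, and slow genes varied most on D1.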
